A study of Mus musculus with 12 samples.

Results

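Interferon-inducible genes are switched on when an interferon binds its receptor, and they code for antiviral, antiparasitic and antigen-presenting proteins. The 41 genes described here, of 22609 gene symbols in each library, were chosen by their normalized counts in these same 12 libraries, with 20 counted as interferon-gamma type and 21 as type I. Since measured values chose them, their values are given as a description and support nothing. The gamma type holds 6 guanylate-binding proteins (Gbp2 to Gbp7), 5 immunity-related GTPases (Iigp1, Irgm1, Irgm2, Igtp, Tgtp1), 5 transcription factors and feedback genes (Irf1, Irf8, Socs1, Ciita, Nlrc5) and 4 antigen-processing genes (Psmb8, Psmb9, Tap1, Tap2). The type I genes are 4 of signalling and feedback (Stat2, Irf7, Irf9, Usp18), 2 RNA sensors (Ifih1, Ddx58), 3 of the IFIT family (Ifit1, Ifit2, Ifit3), 5 of the OAS family (Oas1a, Oas2, Oas3, Oasl1, Oasl2) and 7 other effectors (Ifi44, Ifi35, Isg15, Rsad2, Rtp4, Xaf1, Bst2). The sorting follows general knowledge of these genes, and many of them answer to both kinds of interferon.

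RNA from whole dorsal root ganglion (DRG) and from hind paw was sequenced in C57BL/6J mice of both sexes, with 3 libraries per sex and tissue. Per the labels, the mice of all 4 groups were 8 to 14 weeks old and 20 µl of saline was injected into the paw. The study's methods instead describe naïve mice of a narrower age range, with the females in estrous phase, lumbar DRG from both sides, and punch biopsies of epidermis and dermis. The labels do not say that the libraries came from separate mice, so every p-value measures only the spread between libraries. Normalized counts are reads per gene divided by a size factor of each library (RLE), and a gene was tested where 3 or more libraries held 10 or more counts. Reads on genes numbered 6866545 to 13470783 per library, with a median of 10817522. At that depth a gene with 0 reads may still make up to 2.23e-05 to 4.37e-05 percent of the reads on genes, depending on the library, and these limits cover counting error only.

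Type I interferons signal through Ifnar1 and Ifnar2 to a complex that holds Stat2 and Irf9 and binds the interferon-stimulated response element (ISRE). Interferon-gamma, made mainly by T and NK cells, signals through Ifngr1 and Ifngr2 to the gamma-activated site (GAS) of its target genes. Irf1, itself a target of interferon-gamma, carries the response on to further genes.

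4 libraries stand apart, and the counts of members in each comparison are given with and without them. Female DRG library 1 held the highest normalized count of the 6 DRG libraries for all 40 members that were tested, against 18.2 percent of all tested genes. It was more than 2-fold above the highest of the other 5 for 29 of the 40, against 0.92 percent of all tested genes. Scaling the counts with TMM factors or by the library total, 2 alternatives chosen after seeing the data, left it highest for all 40 and more than 2-fold above for 28 and 29. Male DRG library 1 had a median ratio to the other 5 DRG libraries of 1.62 over gamma-type and 1.26 over type I members, against 1.02 over all tested genes, and its skeletal muscle markers stood 8.70-fold (median of 9) above the median of the other DRG libraries. In male paw library 2 only 13.6 percent of the reads lay on genes, against 23.85 to 28.1 percent elsewhere, and 55.5 percent were aligned more than 1 time, against 37.3 to 43.2 percent. Female paw library 1 was the highest of the paw libraries for 14 of 19 gamma-type and 9 of 19 type I members, against 1384 of all 14316 tested genes.

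**Figure D1:**
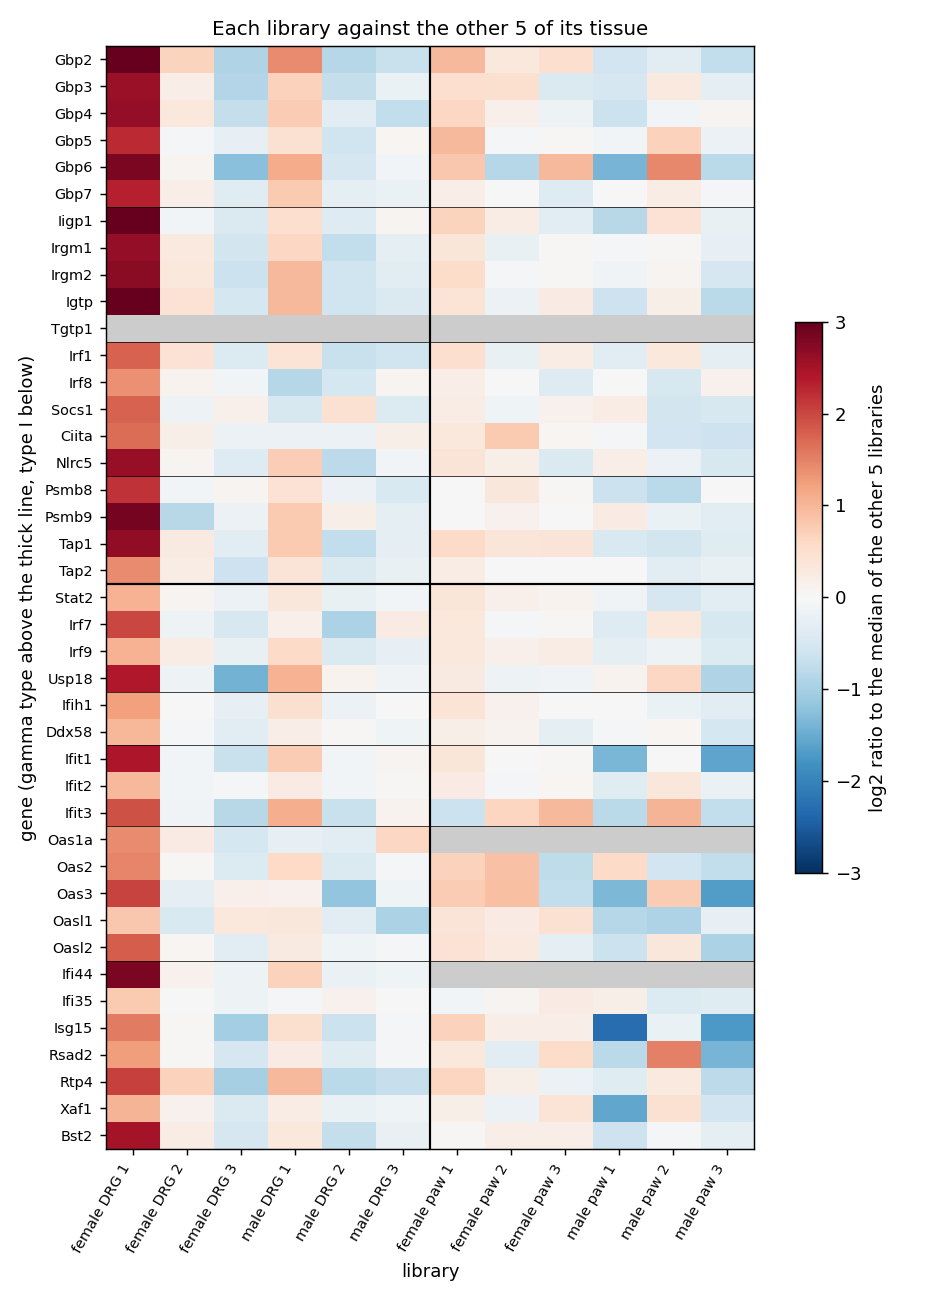
Level of each interferon-inducible gene in each library. Colour, log2 ratio of the normalized count to the median of the other 5 libraries of the same tissue. Thick lines part gamma type from type I and DRG from hind paw. Grey, below the count filter.

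The gamma-type members stood furthest above the other libraries in female DRG library 1. Their ratio to the median of the other 5 DRG libraries ran from 2.57 to 14.0, with a median of 6.12, against 0.964 over all tested genes. Type I members ran from 1.73 to 7.04, with a median of 2.76. All 19 tested gamma-type members and 10 of 21 type I members were more than 2-fold above the highest other library. By role the median ratio, taken on the log scale, was 7.36 for immunity-related GTPases, 6.16 for guanylate-binding proteins, 5.32 for antigen processing and 3.41 for transcription factors and feedback. Among type I members it was 3.73 for the IFIT family, 2.96 for other effectors, 2.88 for signalling and feedback, 2.76 for the OAS family and 2.17 for RNA sensors. The difference between the library and the others was not tested, since it is 1 library.

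Of 11931 genes with at least 50 normalized counts in female DRG library 1, 119 were more than 2-fold above the highest other DRG library. Members made 28 of them, other genes of the interferon lists 34 and cell-type markers 6, and 51 were on no list. The largest ratios, for genes chosen after their values were seen, were those of the chemokine Cxcl9 (12.9), Iigp1 (9.90), the GTPase Gm12250 (7.09) and the adipocyte gene Cfd (5.54). In normalized counts, always listed for libraries 1, 2 and 3 of each sex in turn, Cxcl9 had 288, 22.4 and 12.6 in females and 19.7, 13.2 and 13.4 in males in DRG.

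The members lie on 15 chromosomes, with 7 each on chromosomes 5 and 11 and 5 on chromosome 3. Members of a family sit side by side in several places (mouse build mm9), with Gbp5, Gbp7, Gbp3 and Gbp2 at chr3:142159864-142300972, Psmb9, Tap1, Psmb8 and Tap2 at chr17:34318933-34353266, and Ifit2, Ifit3 and Ifit1 at chr19:34625184-34724499. Exons of Psmb9 and Tap1 overlap on opposite strands, as do those of Irf7 and Phrf1, and Irf9 shares bases with Rnf31 on the same strand. How the counting treated strand is not stated, so reads of these pairs may have been left out or counted for the partner. Tgtp1 shares bases with Gm12185 on the same strand and had 0 reads in every library. Its near copy Tgtp2, chosen after its values were seen, had 122, 10.3 and 8.41 in females and 25.5, 14.4 and 6.71 in males in the DRG libraries.

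Promoter sequences of 300 bases, 250 before the start of transcription and 50 from it on, were searched for the ISRE core (GAAA, 2 bases of any kind, GAAA) on either strand and for the letters of GAS (TTC, 3 bases of any kind, GAA), which read the same on both strands. Of 37 promoters of 32 members, 51.4 percent held the ISRE core and 32.4 percent GAS, against 3.44 and 8.30 percent of all 32851 promoters. Both were held by 18.9 percent, against 0.454 percent of all. The ISRE core was in 9 of 17 gamma-type and 10 of 20 type I promoters, and GAS in 8 of 17 and 4 of 20. For 9 members (Ciita, Gbp4, Gbp6, Iigp1, Nlrc5, Oas2, Rtp4, Tap2 and Usp18) the promoter table had no entry. A match shows letters only, not binding. 6 promoters are printed to show the letters where they occur, 4 of gamma-type and 2 of type I members. They come from the RefSeq promoter table for GRCm38.p6, each was located in mm9 (NCBIM37) by its exact sequence, each runs along the gene's own strand, and capitals mark the motifs.
Gbp2, a GTPase that coats the vacuoles of parasites, has 1 ISRE core read on the other strand, at chr3:142283377-142283676 (plus strand).
Gbp2: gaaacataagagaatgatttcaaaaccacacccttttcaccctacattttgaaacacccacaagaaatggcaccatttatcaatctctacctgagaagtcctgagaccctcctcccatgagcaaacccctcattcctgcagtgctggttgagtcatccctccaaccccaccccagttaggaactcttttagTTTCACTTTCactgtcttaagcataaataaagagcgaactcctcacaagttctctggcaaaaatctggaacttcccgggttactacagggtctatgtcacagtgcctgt
Igtp, a GTPase of the same defence, has GAS followed by the ISRE core, at chr11:58012808-58013107 (plus strand).
Igtp: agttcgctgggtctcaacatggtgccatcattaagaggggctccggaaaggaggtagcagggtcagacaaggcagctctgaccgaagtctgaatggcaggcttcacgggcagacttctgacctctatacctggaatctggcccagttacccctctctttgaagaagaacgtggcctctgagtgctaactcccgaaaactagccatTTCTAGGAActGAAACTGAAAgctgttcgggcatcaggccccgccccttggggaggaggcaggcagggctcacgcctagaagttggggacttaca
Irf1, a transcription factor of the gamma response, has GAS alone, at chr11:53583266-53583565 (plus strand).
Irf1: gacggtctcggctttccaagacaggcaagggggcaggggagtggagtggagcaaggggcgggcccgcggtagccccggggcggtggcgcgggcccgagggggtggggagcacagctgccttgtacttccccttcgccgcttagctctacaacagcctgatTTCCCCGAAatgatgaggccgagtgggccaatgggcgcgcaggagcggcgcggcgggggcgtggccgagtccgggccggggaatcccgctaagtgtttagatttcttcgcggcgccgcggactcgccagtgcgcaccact
Irf8, a transcription factor of macrophages and dendritic cells, has GAS at 2 places, at chr8:123260008-123260307 (plus strand).
Irf8: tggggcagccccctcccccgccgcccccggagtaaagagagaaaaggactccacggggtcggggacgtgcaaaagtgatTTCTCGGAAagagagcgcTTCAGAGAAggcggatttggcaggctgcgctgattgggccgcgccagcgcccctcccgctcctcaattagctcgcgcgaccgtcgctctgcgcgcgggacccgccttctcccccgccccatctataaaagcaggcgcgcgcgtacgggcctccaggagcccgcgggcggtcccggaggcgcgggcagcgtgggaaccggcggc
Bst2, a protein that holds budding virus at the cell surface, has 2 ISRE cores and GAS that overlap one another, at chr8:74061322-74061621 (minus strand).
Bst2: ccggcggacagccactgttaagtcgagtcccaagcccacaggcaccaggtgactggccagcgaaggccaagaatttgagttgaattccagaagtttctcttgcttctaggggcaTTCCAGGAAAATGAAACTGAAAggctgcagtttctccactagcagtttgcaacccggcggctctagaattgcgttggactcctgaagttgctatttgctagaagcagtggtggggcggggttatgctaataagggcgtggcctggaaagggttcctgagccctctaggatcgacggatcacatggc
Ifit1, which binds foreign RNA, has 2 ISRE cores read on the other strand, at chr19:34715129-34715428 (plus strand).
Ifit1: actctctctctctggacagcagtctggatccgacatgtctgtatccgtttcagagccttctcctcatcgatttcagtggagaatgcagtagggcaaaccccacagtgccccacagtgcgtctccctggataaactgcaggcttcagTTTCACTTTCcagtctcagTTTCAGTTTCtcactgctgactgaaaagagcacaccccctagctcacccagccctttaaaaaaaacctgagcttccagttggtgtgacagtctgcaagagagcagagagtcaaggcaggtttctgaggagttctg

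No member differed between females and males in whole DRG past the threshold, and the higher mean of the females was not kept without 1 library. All 40 tested members had a log2 fold change above 0 (females minus males), against 50.5 percent of all 14456 tested genes. None had an adjusted p-value (edgeR, Benjamini-Hochberg over all tested genes) below 0.05, against 7 genes or 0.0484 percent of all. Without adjustment 2 members were below 0.05, against 6.01 percent of all genes, and DESeq2 called 0 members with 3 below 0.05 unadjusted (510 of all genes) and gave no p-value for Iigp1. That unadjusted count ran from 0 to 25 with 1 library left out (25 without female DRG library 3, against 1223 of all 14343 genes in that fit, and 14 without female DRG library 2, against 668 of 14300), and was 12 with the library number as a block (517 of all 14456) and 8 with all 12 libraries in 1 fit (668 of all 15666), with 0 called in each. For none of the 40 was every female above every male, against 4.88 percent of all genes. The median log2 fold change was 1.21 for gamma-type members, 0.48 for type I members and 0.00 for all genes. Without female DRG library 1, 7 members were above 0 and 33 below, the medians were -0.18 and -0.17, 0 were called and 2 were below 0.05 unadjusted (520 of all 14337). Without male DRG library 1 all 40 were above 0, with medians of 1.65 and 0.82 (gamma type and type I), 1 below 0.05 unadjusted (451 of all 14325) and 0 called. Without library 1 of either sex, an alternative chosen after seeing the data, 24 of 39 were above 0, the medians were 0.19 and -0.02, and 0 were called.

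**Figure D2:**
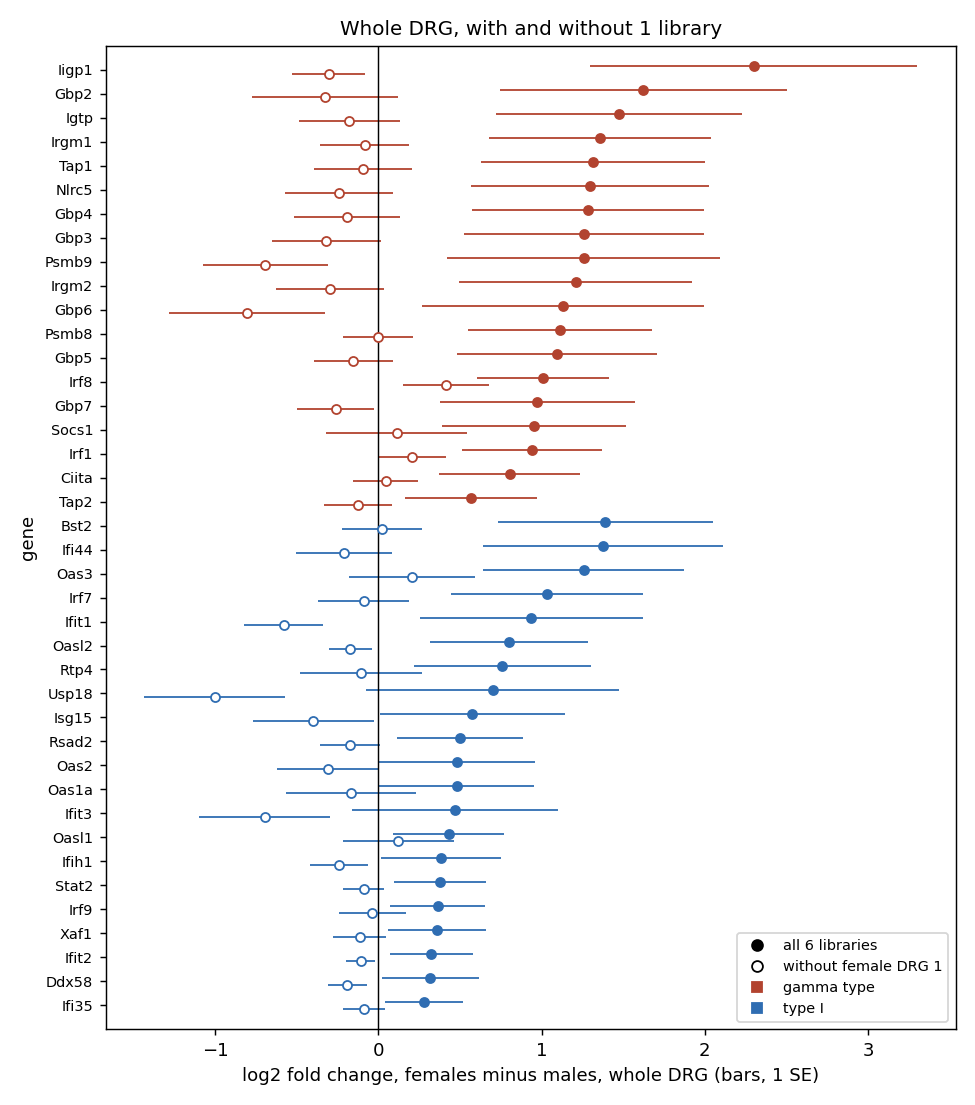
Difference between the sexes in whole DRG. Points, log2 fold change (females minus males) from edgeR with all 6 libraries (filled) and without female DRG library 1 (open). Bars, 1 SE. Red, gamma type. Blue, type I.

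In hind paw no member passed the threshold, most fitted differences were above 0 and small, and the sexes overlapped for 27 of 38 tested members. The fitted log2 fold change of edgeR was above 0 for 37 of the 38 (36 by DESeq2), against 48.7 percent of all 14316 tested genes, and Gbp7 was the exception at -0.09. By the means of the normalized counts, females were also below males for Rsad2 (56.0 against 60.6) and Usp18 (19.8 against 19.96). edgeR with Benjamini-Hochberg adjustment called 0 members, against 22 genes or 0.154 percent of all, and the lowest adjusted p-value of a member was 0.175 (Tap1). Unadjusted, 10 members were below 0.05, against 9.74 percent of all genes, and DESeq2 called 0 with 8 below 0.05 unadjusted (1070 of all genes). With all 12 libraries in 1 fit, 0 members were below 0.05 unadjusted, against 1870 of all 15666 genes. Every female was above every male for 11 members (Gbp2, Ciita, Psmb8, Tap1, Stat2, Irf9, Ifih1, Ifit1, Oasl1, Isg15 and Bst2), against 6.64 percent of all genes. The median log2 fold change was 0.27 for gamma-type members, 0.38 for type I members and -0.01 for all genes. Without male paw library 2, 36 were above 0 with medians of 0.44 and 0.58, 15 were below 0.05 unadjusted (1211 of all 14269 genes), and edgeR called 0. Without female paw library 1, 32 of 37 were above 0 with medians of 0.18 and 0.32, 4 were below 0.05 unadjusted (Gbp2, Ciita, Tap1 and Irf9, against 1171 of all 14192 genes), and edgeR called 0.

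**Figure D3:**
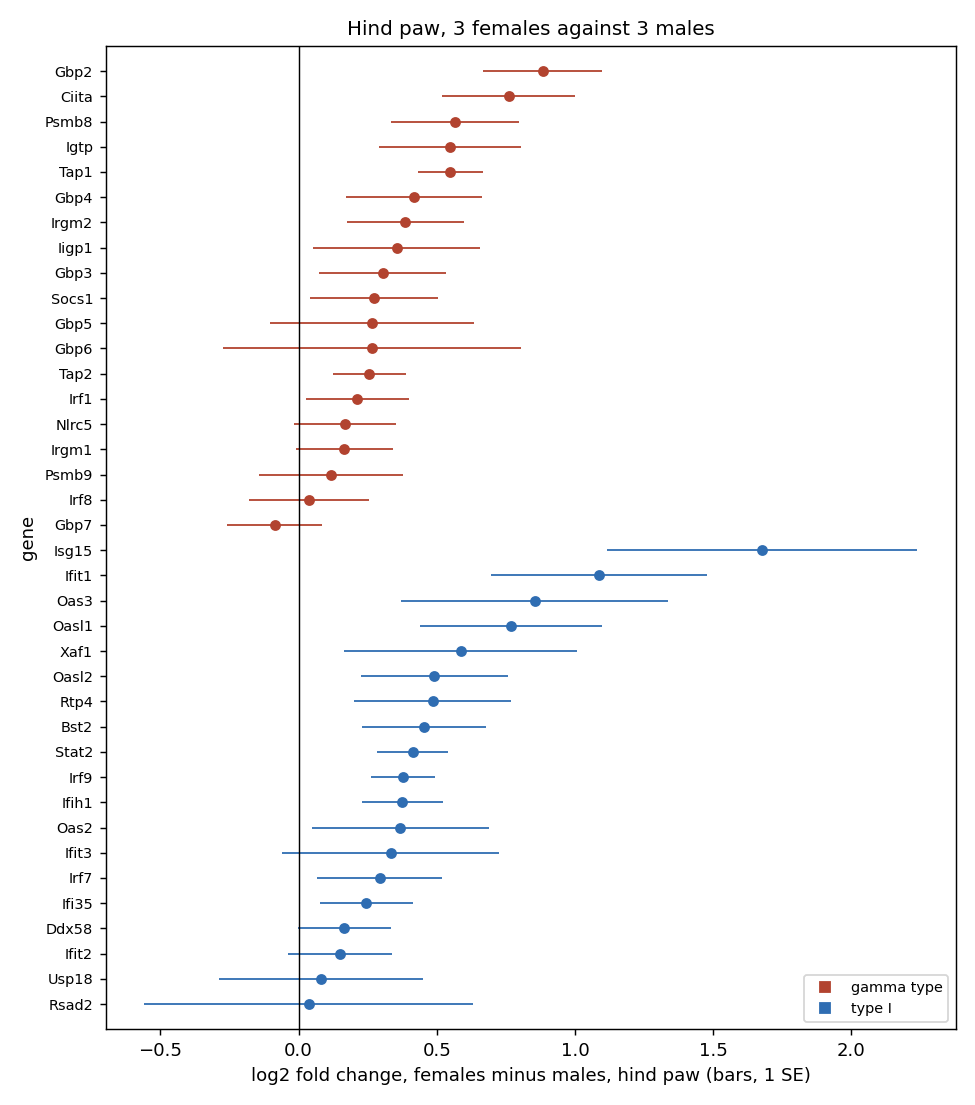
Difference between the sexes in hind paw. Points, log2 fold change (females minus males) from edgeR. Bars, 1 SE. Red, gamma type. Blue, type I.

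The difference between the sexes did not itself differ between the tissues past the threshold for any member. Of 40 tested members edgeR called 0 with Benjamini-Hochberg adjustment, against 0.0128 percent of all 15666 genes. Unadjusted, 0 members were below 0.05, against 1216 of all genes. DESeq2, which gave no p-value for Iigp1, called 0 with 0 below 0.05 unadjusted, against 36 and 1071 of all genes. The log2 difference (hind paw minus DRG) was below 0 for 32, with medians of -0.81 for gamma-type members, -0.10 for type I members and -0.01 for all genes. Without female DRG library 1 it was above 0 for 39 of 40, and the medians turned to 0.61 and 0.63. In that fit 5 members were below 0.05 unadjusted and 0 called, against 964 and 2 of all 15633 genes. The log2 difference was below 0 for 34 without male DRG library 1, 30 without male paw library 2 and 32 without female paw library 1. In each of these 0 members were below 0.05 unadjusted, against 941 of all 15612, 1369 of 15638 and 1293 of 15615 genes in the same order.

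Most members were less abundant in hind paw than in whole DRG. edgeR with Benjamini-Hochberg adjustment called 28 of 40 lower in hind paw and 1 higher, against 43.1 percent of all 15666 genes lower and 42.6 percent higher. DESeq2 called 28 members, 27 of them lower, against 13244 of all 15666 genes called, and gave no p-value for Iigp1. Lower were 12 of 19 gamma-type and 16 of 21 type I members, and the median log2 fold change (hind paw minus DRG) was -1.20 and -1.72, against 0.00 over all genes. By role, 5 of 6 guanylate-binding proteins, 4 of 4 tested immunity-related GTPases, 3 of 3 IFIT genes, 3 of 5 OAS genes and 7 of 7 other effectors were lower. So were 2 of 4 antigen-processing genes, 2 of 4 genes of signalling and feedback and 1 of 2 RNA sensors, and of the 5 transcription factors and feedback genes Irf1 was lower and Socs1 higher. Not called were Gbp4, Irf8, Ciita, Nlrc5, Psmb9, Tap1, Irf7, Irf9, Ifih1, Oas2 and Oas3. Without female DRG library 1, edgeR called 27 lower and 5 higher (Socs1, Irf8, Ciita, Nlrc5 and Tap1), and the medians were -0.66 and -1.21. Over all genes, 13299 of 15633 were called in that fit. Without library 1 of either sex in DRG, the alternative added after seeing the data, edgeR called 23 of 39 lower and 4 higher (12988 of all 15548 genes called). Leaving out male DRG library 1, male paw library 2 or female paw library 1 gave 27 lower and 1 higher each time. The calls over all genes were 13130 of 15612, 13361 of 15638 and 13162 of 15615 in the same order. Whole tissue was sequenced, so fewer cells of a type and less RNA per cell cannot be told apart.

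**Figure D4:**
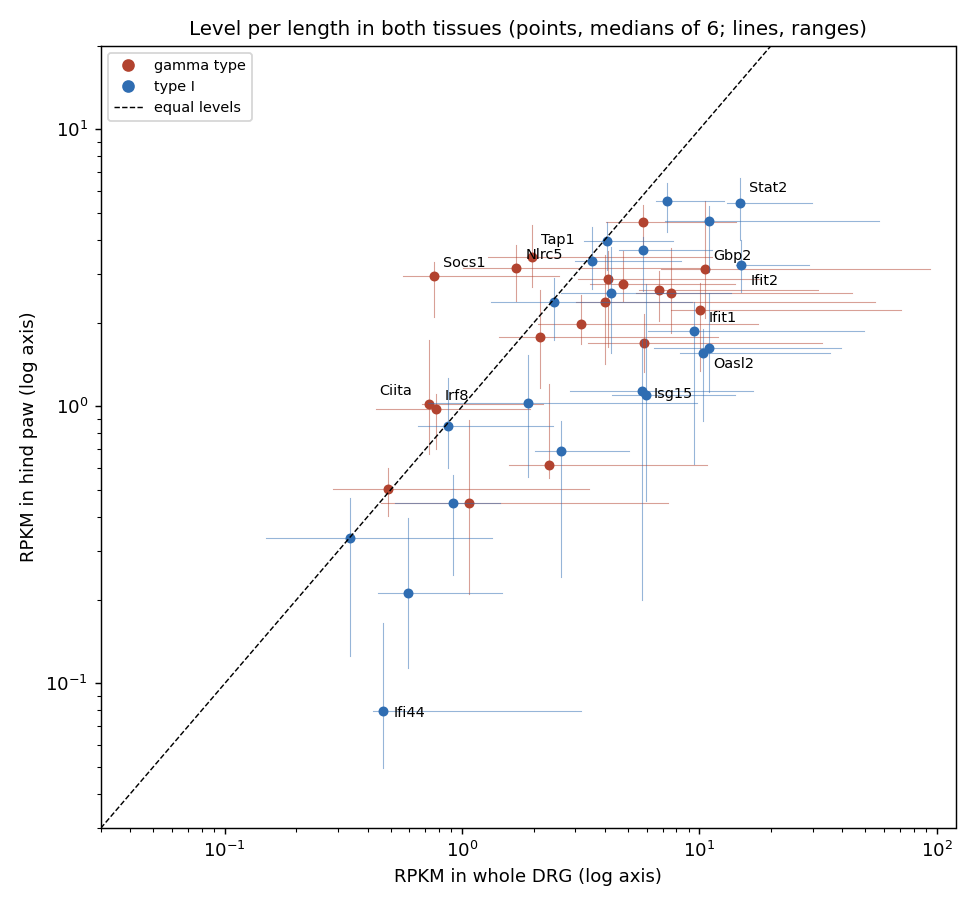
Level per length of the 40 members with reads in whole DRG and hind paw. Points, medians of 6 libraries. Lines, lowest to highest library. Dashed, equal levels. Red, gamma type. Blue, type I.

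Per length, the members lay under the level of all genes in hind paw, and near it in DRG only with all libraries included. The median over members of the mean RPKM (reads per kilobase of exon, scaled by library size after RLE) was 5.45 for gamma-type and 5.68 for type I members in DRG, against 6.56 over all tested genes with a length. It was 3.03 and 4.15 without female DRG library 1. In hind paw it was 2.46 and 1.77, against 6.67. With all libraries, Gbp2 had the highest mean of the gamma type in DRG (25.1) and Tap2 in hind paw (4.48). Bst2 was the highest type I member in DRG with all libraries (17.9) and Ifi35, chosen after its values were seen, in hind paw (5.37). Without female DRG library 1 the highest mean in DRG was 11.39 for the gamma type, still that of Gbp2. For type I it was 15.27, that of Ifit2, so the rank of Bst2 in DRG holds only with that library included.

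Guanylate-binding proteins coat and break open the vacuoles in which bacteria and parasites live. Gbp2, the member of this family with the highest RPKM, had 2519.5, 348 and 186 in females and 591, 191 and 219 in males in whole DRG. In that tissue the 2 libraries numbered 1 were the highest of their sex, and the log2 fold change was 1.62 ± 0.88 (SE) with an unadjusted p of 0.0977 by edgeR, and -0.33 without female DRG library 1. In hind paw Gbp2 had 149, 93.8 and 108 in females and 63.1, 75.4 and 56.2 in males, every female above every male, with a log2 fold change of 0.88 ± 0.22 (SE) and an adjusted p-value of 0.225 (edgeR, Benjamini-Hochberg). Gbp6 had 342, 50.7 and 21.02 in females and 104, 35.9 and 48.05 in males in DRG, with the sexes overlapping and a log2 fold change of 1.13 ± 0.86 (SE), or -0.81 without female DRG library 1. Its hind paw counts were 26.4, 14.4 and 29.6 in females and 9.71, 41.1 and 14.9 in males, and male paw library 2 was the highest. The median log2 fold change of the 6 was 1.19 in DRG (-0.29 without female DRG library 1) and 0.29 in hind paw, with 0 called in either by edgeR and 0 and 1 below 0.05 unadjusted.

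Immunity-related GTPases mark and destroy such vacuoles in mice. Iigp1 had 1841, 131 and 101 in females and 186, 105 and 137 in males in whole DRG, so that all but female library 1 lay between 101 and 186. Its log2 fold change was 2.30 ± 0.9999 (SE), with an unadjusted p of 0.0478 and an adjusted p-value of 0.743 (edgeR, Benjamini-Hochberg), and -0.30 without that library. In hind paw it had 118, 85.7 and 68.2 in females and 47.7, 99.3 and 73.8 in males, with the sexes overlapping. Igtp, the highest of the family by RPKM, had 1539, 251 and 173 in females and 366, 165 and 186 in males in DRG and 60.4, 45.1 and 53.3 in females and 33.2, 51.4 and 28.97 in males in hind paw. Its paw counts all lay under its DRG counts, and the log2 level fell by 3.18 ± 0.53 (SE) from DRG to hind paw (adjusted p 9.43e-05, edgeR, Benjamini-Hochberg), or by 2.37 without female DRG library 1. The median sex difference of the 4 tested was 1.42 in DRG (-0.24 without female DRG library 1) and 0.37 in hind paw on the log2 scale, with 0 called.

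**Figure D5:**
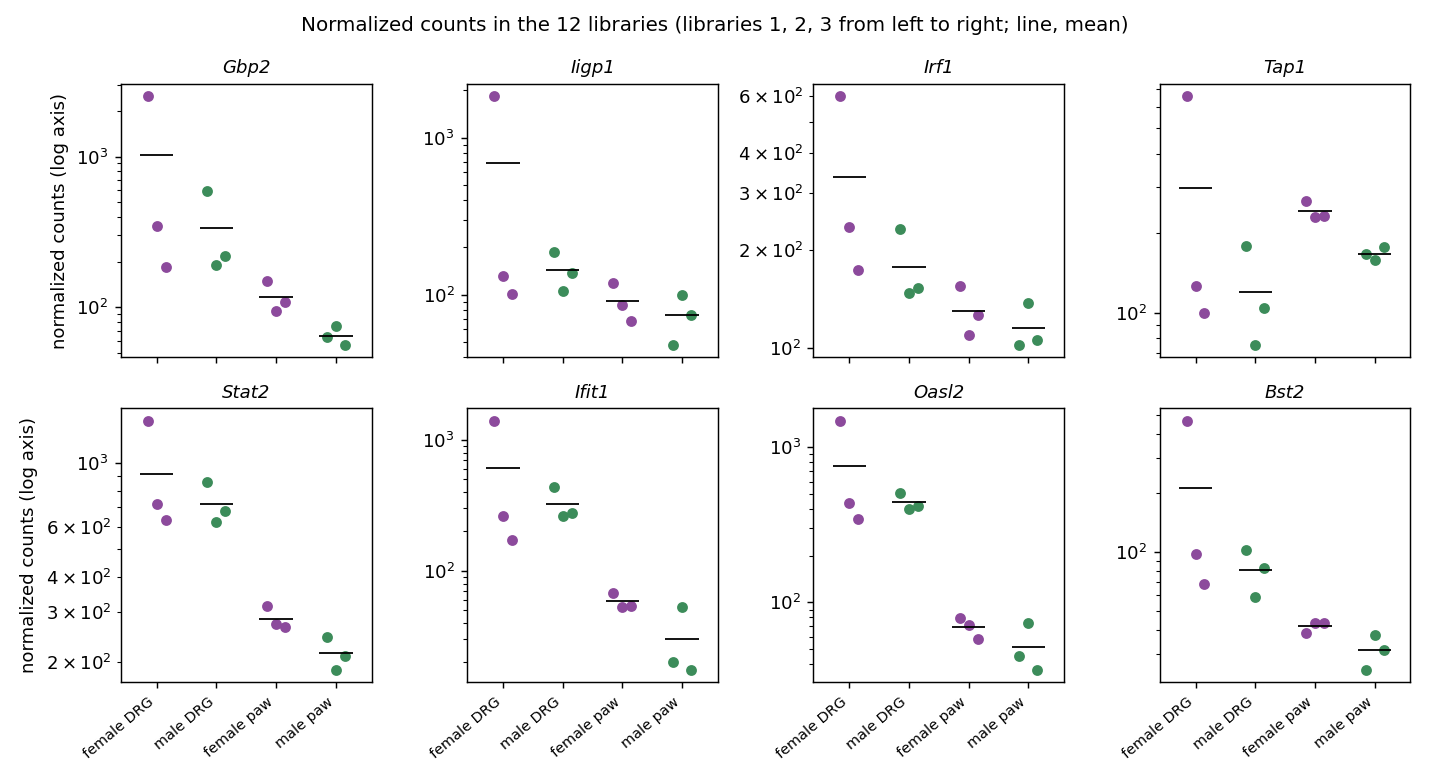
Normalized counts of 8 members in the 12 libraries. Purple, females. Green, males. Lines, means.

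Among the transcription factors and feedback genes, Irf1 (a factor that spreads the gamma response) had 599.9, 236 and 174 in females and 233, 147 and 153 in males in DRG and 155, 109 and 126 in females and 102, 137 and 105 in males in hind paw, where the sexes overlapped. Irf8 (macrophages and dendritic cells) had the lowest unadjusted p of the members in DRG, 0.0343, with a log2 fold change of 1.01 ± 0.40 (SE) and an adjusted p-value of 0.743 (edgeR, Benjamini-Hochberg). Its counts were 147, 61.04 and 56.7 in females and 32.9, 41.9 and 60.4 in males, so 1 male exceeded 1 female, and 84.01, 73.97 and 56.3 in females and 73.6, 53.1 and 80.8 in males in hind paw. Without female DRG library 1 the log2 fold change was 0.41. Socs1, which blocks the kinases below the receptors, was the only member that edgeR called higher in hind paw with all libraries, 2.86-fold (adjusted p 0.000407, edgeR, Benjamini-Hochberg). It had 33.4, 9.46 and 10.5 in females and 7.4, 13.2 and 7.82 in males in DRG and 43.4, 36.99 and 40.5 in females and 42.9, 27.4 and 28.97 in males in hind paw, and only female DRG library 1 reached the range of the paw.

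Ciita, the switch of MHC class II genes, had 147, 51.6 and 45.2 in females and 45.2, 45.5 and 51.4 in males in DRG and 82.1, 115 and 69.1 in females and 66.3, 46.2 and 44.8 in males in hind paw. Every female was above every male in the paw, with a log2 fold change of 0.76 ± 0.24 (SE) and an adjusted p-value of 0.355 (edgeR, Benjamini-Hochberg). Without female DRG library 1 Ciita was 0.52 higher in hind paw on the log2 scale (adjusted p 0.0131), and Irf8 0.47 (adjusted p 0.0295), both by edgeR with Benjamini-Hochberg adjustment. With all libraries the adjusted p-values were 0.614 and 0.511. The median log2 fold change between the sexes of the 5 genes was 0.95 in DRG (0.11 without female DRG library 1) and 0.21 in hind paw, with 0 called in either and 1 below 0.05 unadjusted in each.

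Antigen processing was represented by the proteasome parts Psmb8 and Psmb9 and the peptide pump Tap1 and Tap2. Tap1 had the lowest p of the members in hind paw, with an adjusted p-value of 0.175 and 0.00164 unadjusted (edgeR, Benjamini-Hochberg). Its counts there were 265, 230.0 and 233 in females and 167, 158 and 177 in males, every female above every male, a log2 fold change of 0.55 ± 0.12 (SE). In DRG Tap1 had 661, 126 and 99.8 in females and 179, 75.4 and 104 in males. Tap2, highest of the 4 by RPKM, had 579, 251 and 164 in females and 282, 184 and 216 in males in DRG and 216, 187 and 189 in females and 188, 149 and 161 in males in hind paw, where the sexes overlapped. The median log2 fold change of the 4 was 1.18 in DRG (-0.11 without female DRG library 1) and 0.40 in hind paw, with 0 called and 0 and 2 below 0.05 unadjusted.

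Of the type I signalling genes, Stat2 and Irf9 belong to the complex that binds the ISRE. Stat2 had 1411, 719 and 633 in females and 862, 619.9 and 683 in males in DRG and 314, 272 and 267 in females and 246, 188 and 211 in males in hind paw. In the paw every female was above every male, with a log2 fold change of 0.41 ± 0.13 (SE) and an adjusted p-value of 0.343 (edgeR, Benjamini-Hochberg). Irf9 had 448, 254 and 219 in females and 324, 188 and 212 in males in DRG and 268, 241 and 251 in females and 197, 216 and 180.0 in males in hind paw, again without overlap in the paw, with 0.38 ± 0.12 (SE) and an adjusted p-value of 0.324 (edgeR, Benjamini-Hochberg). The RNA sensor Ddx58 had 858, 431 and 346 in females and 491, 440.4 and 405 in males in DRG and 309, 289.6 and 232 in females and 271, 284 and 197 in males in hind paw, with the sexes overlapping in both. Medians between the sexes were 0.54 in DRG and 0.34 in hind paw for the 4 signalling genes and 0.35 and 0.27 for the 2 sensors on the log2 scale, and in DRG -0.09 and -0.21 without female DRG library 1. None was called, and 2 and 1 were below 0.05 unadjusted in the paw.

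IFIT proteins bind viral RNA, and all 3 of their genes were lower in hind paw than in DRG. Ifit1 had 1403, 261 and 173 in females and 441, 261 and 277 in males in DRG and 67.96, 53.2 and 54.3 in females and 20.2, 53.1 and 17.6 in males in hind paw. All paw counts lay under all DRG counts, and the log2 level fell by 3.49 ± 0.52 (SE), an 11.3-fold difference (adjusted p 3.16e-05, edgeR, Benjamini-Hochberg), or by 2.75 without female DRG library 1. In the paw every female was above every male, although female library 2 and male library 2 differed by little. The log2 fold change of Ifit1 between the sexes in the paw was 1.09 with all libraries (adjusted p 0.408, edgeR, Benjamini-Hochberg). It was 0.95 without female paw library 1 (adjusted p 0.678) and 1.64 without male paw library 2 (adjusted p 0.199), by the same test. Ifit2, highest of the family by RPKM, had 1217, 603 and 623 in females and 741, 606 and 639 in males in DRG and 159, 133 and 139 in females and 108, 168 and 121 in males in hind paw, where male library 2 was the highest. Sex medians of the 3 were 0.47 in DRG (-0.58 without female DRG library 1) and 0.33 in hind paw on the log2 scale, with 0 called and 0 and 1 below 0.05 unadjusted.

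OAS enzymes sense double-stranded RNA and set off the degradation of RNA. Oasl2, highest of the family by RPKM, had 1480.0, 437 and 345 in females and 509, 399 and 420.2 in males in DRG and 79.3, 71.3 and 58.3 in females and 45.3, 73.7 and 36.9 in males in hind paw. Its log2 level fell by 3.30 ± 0.35 (SE) from DRG to hind paw, 9.85-fold with no overlap (adjusted p 1.35e-06, edgeR, Benjamini-Hochberg), and by 2.83 without female DRG library 1. Oas3 had 74.7, 16.3 and 19.96 in females and 19.7, 8.38 and 17.9 in males in DRG, with a log2 fold change of 1.26 ± 0.62 (SE) and an unadjusted p of 0.0722 by edgeR, and 0.21 without female DRG library 1. In hind paw Oas3 had 23.6, 26.2 and 13.8 in females and 8.9, 23.98 and 7.02 in males, with the sexes overlapping. The median was 0.48 in DRG (-0.17 without female DRG library 1) and, for 4 genes, 0.63 in hind paw, with 0 called and 0 and 1 below 0.05 unadjusted.

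Among the other effectors, Bst2 had 467, 97.2 and 68.3 in females and 103, 58.6 and 82.7 in males in DRG, with a log2 fold change of 1.39 ± 0.66 (SE) and an unadjusted p of 0.0653 by edgeR, and 0.02 without female DRG library 1. In hind paw it had 38.7, 43.3 and 43.5 in females and 25.1, 37.7 and 31.6 in males, every female just above every male. Ifi44, which limits viral growth, had 208, 31.8 and 28.4 in females and 46.9, 27.5 and 29.1 in males in DRG and 3.78, 6.31 and 10.9 in females and 3.24, 5.14 and 5.27 in males in hind paw. Its log2 level fell by 3.31 ± 0.61 (SE) to the paw, 9.904-fold (adjusted p 0.000203, edgeR, Benjamini-Hochberg), or by 2.53 without female DRG library 1, and the paw counts were too low for a test between the sexes. Rsad2, an enzyme that blocks viral RNA synthesis, had 654, 281 and 199 in females and 325, 219 and 273 in males in DRG and 56.6, 45.1 and 66.2 in females and 32.4, 128 and 21.1 in males in hind paw. Male library 2 was the highest of the paw and male library 3 the lowest, and the log2 fold change was 0.04 ± 0.59 (SE). Medians were 0.58 over 7 effectors in DRG (-0.12 without female DRG library 1) and 0.47 over 6 in hind paw, with 0 called and 0 and 1 below 0.05 unadjusted.

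Almost no interferon mRNA was counted. Of 19 interferon symbols in the files, 15 had 0 reads in all 12 libraries, and the other 4 had 10 reads together. Ifng had 4 reads in female DRG library 1, 1 in female DRG library 2 and 0 elsewhere. Ifnab had 1 read in female DRG library 3 and 2 in female paw library 1. No ligand reached the count filter, so none was tested. Since reads aligned more than 1 time were left out of the gene counts, a count of 0 does not show that an interferon was not expressed.

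Genes that carry the interferon signal were present in every library. Ifngr1, the receptor gene with the highest RPKM, had 460.2, 438 and 463 in females and 349.6, 473 and 438 in males in DRG and 603, 689 and 548 in females and 702, 637 and 708 in males in hind paw. Jak1, highest of the kinases, STATs and IRFs by mean RPKM, had 4479, 4898 and 5364 in females and 5684, 4922 and 5096 in males in DRG and 3787, 3886 and 3683 in females and 3552, 3972 and 3808 in males in hind paw. Tbk1, highest of the nucleic acid sensing genes by mean RPKM, had 638, 671 and 746 in females and 777, 649.8 and 771 in males in DRG and 529, 593 and 620.3 in females and 481, 493 and 534 in males in hind paw. Female DRG library 1 had a median ratio to the other DRG libraries of 1.03 over 6 receptors, 1.07 over 18 kinases, STATs and IRFs and 1.32 over 16 sensing genes. Against those, the ratio was 2.06 over 55 other induced genes, 2.09 over 12 genes of MHC class I presentation and 2.18 over 8 of MHC class II.

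None of these pathway genes was called between the sexes by edgeR in either tissue. Over all genes, 50.5 percent were above 0 and 6.01 percent below 0.05 unadjusted in DRG, and 48.7 and 9.74 percent in hind paw. In DRG the fold change was above 0 for 4 of 6 receptors, 15 of 18 kinases, STATs and IRFs, 14 of 16 sensing genes, 52 of 55 other induced genes, 11 of 12 of MHC class I and 7 of 8 of MHC class II, with 0, 3, 2, 2, 0 and 2 below 0.05 unadjusted. With female DRG library 1 left out, a setting added for these lists after seeing the data, it was above 0 for 2 of 6, 12 of 18, 10 of 16, 16 of 55, 6 of 12 and 7 of 8 in the same order, with 0, 1, 1, 4, 0 and 1 unadjusted. In hind paw it was above 0 for 4 of 6, 10 of 18, 7 of 16, 35 of 53, 7 of 11 and 6 of 7, with 1, 0, 3, 10, 0 and 6 unadjusted. Over the MHC class II genes the median log2 fold change in hind paw was 0.55, and Cd74, the highest by RPKM, had 2768, 2947 and 2262 in females and 2207, 1573 and 1758 in males, every female above every male (log2 fold change 0.54 ± 0.14 (SE), adjusted p 0.245, edgeR, Benjamini-Hochberg). B2m, the light chain of MHC class I, had 6642, 2249 and 1991 in females and 1999, 2409 and 2165 in males in DRG and 1084, 1017 and 938 in females and 1312, 1191 and 1035 in males in hind paw. Serping1, highest of the other induced genes by mean RPKM, had 3049, 1634 and 1483 in females and 1489, 1923 and 1556 in males in DRG and 2723, 2308 and 1917 in females and 4171, 2436 and 2304 in males in hind paw.

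Between the tissues 43.1 percent of all genes were called lower in hind paw and 42.6 percent higher, and the lists held calls of both kinds except MHC class I. By edgeR with Benjamini-Hochberg adjustment, 11 of 18 kinases, STATs and IRFs and 9 of 16 sensing genes were higher in hind paw and 5 and 3 lower, while 31 of 57 other induced genes were lower and 17 higher. Receptors were lower for 4 of 6, MHC class I genes for 5 of 12 and MHC class II genes for 2 of 8, and 2, 0 and 4 were higher. When female DRG library 1 was left out, 6 of 12 MHC class I genes were higher and 5 lower, and of the other induced genes 26 were lower and 19 higher.

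Marker lists give the cells that were present. Sensory neuron markers (10 of 10 in the files, Nefh most abundant) summed to 55807, 67502 and 70258 in females and 78094, 68176 and 74753 in males in DRG and 397, 318 and 213 in females and 432, 432 and 387 in males in hind paw. Keratinocyte markers (8 of 9, Krt10) summed to 268, 548 and 327 in females and 308, 560.1 and 935 in males in DRG and 483552, 561811 and 434857 in females and 688085, 657656 and 586912 in males in hind paw. Skeletal muscle markers (9 of 9) summed to 814, 2605 and 4434 in females and 22690.5, 5601 and 628 in males in DRG and 96456, 38008 and 135637 in females and 41845, 194979 and 147922 in males in hind paw, although the methods describe biopsies of skin layers.

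Beside the members, female DRG library 1 also had the highest marker sums for macrophages, T and NK cells, dendritic cells, endothelium, fibroblasts and adipocytes. Its sum was low for muscle and the lowest of the DRG libraries for sensory neurons. The dendritic cell sums in DRG lay close together (456, 414 and 432 in females and 354, 422 and 426 in males). Flt3, the most abundant of those markers in DRG, had 230, 236 and 241 in females and 225, 268 and 229 in males, so it was not highest in this library. Macrophage markers (10 of 11, Mrc1 most abundant) summed to 3362, 2145 and 1951 in females and 1500.2, 2093 and 1851 in males in DRG. T and NK cell markers (15 of 15, Lck most abundant in DRG) summed to 165, 42.1 and 48.3 in females and 41.1, 47.9 and 33.5 in males, with 0, 3, 3, 2, 1 and 5 of them at 0 reads in the same order. Adipocyte markers (5 of 5, Fabp4) summed to 1566, 247 and 472 in females and 368, 367 and 266 in males. Whether the members follow any of these cells was not tested. Macrophage sums in hind paw were 6049, 5120.4 and 4129.6 in females and 9011, 5452 and 5896 in males, and all 10 markers had a log2 fold change below 0. Fibroblast sums there (6 of 6, Col3a1) were 88032, 73119 and 68391 in females and 168968, 113032 and 130417 in males, all 6 below 0, and dendritic cell sums (9 of 9) were 347, 382 and 337 in females and 273, 274 and 306 in males, with 6 of 7 tested markers above 0. T and NK cell markers in hind paw summed to 68.9, 87.5 and 86.9 in females and 51, 49.7 and 65.8 in males, with 5, 4, 2, 6, 8 and 5 of the 15 at 0 reads and Gzma at 0 in every paw library.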

How the data were processed

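The deposited files hold the raw count of reads per gene symbol for each of 12 libraries, made by the authors with bcl2fastq, TopHat2 on mm9 and HTSeq, and the authors normalized with DESeq (versions not stated). For the first of these steps the study's methods name CASAVA instead of bcl2fastq. Each file lists 22609 symbols and 5 categories of reads outside genes, which were left out of library sizes and tests. Of the listed reads, 37.3 to 55.5 percent were aligned more than 1 time and 30.9 to 35.6 percent lay in no gene. The labels name a stranded kit with removal of ribosomal RNA, whereas the methods name oligo-dT primers and a stranded mRNA kit.

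Counts were normalized with RLE factors over the 12 libraries. RPKM used the union of exons of GENCODE vM1, known for 21679 symbols, and library sizes scaled by RLE. A gene needed 10 or more counts in 3 or more libraries, and was then tested with edgeR 4.0.16 (quasi-likelihood F-test, RLE factors, Benjamini-Hochberg over all tested genes, threshold 0.05) in R 4.3.3 with limma 3.58.1. The sexes were compared within each tissue, and the interaction and the tissues in 1 fit of 4 group means. Tables and plots were made with Python 3.11.15, pandas 2.3.3, numpy 2.4.6 and matplotlib 3.10.9. The procedure was tested on simulated data. Ratios between libraries used a pseudocount of 0.5. The lowest depth was 6866545 reads on genes, and pairs of libraries of a group differed with a chi-squared per degree of freedom of 2.35 to 75.6, where counting error alone gives about 1.

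Alternatives were DESeq2 1.42.0, TMM factors, no count filter, the library number as a block, all 12 libraries in the fit of each tissue, and each library left out in turn. Leaving out library 1 of either sex in DRG, and TMM or total scaling for the ranks of female DRG library 1, and the left-out libraries for the roles of members and the pathway and cell-type lists, were added after seeing the data. Members and lists were chosen with earlier results of these data known. Values were printed for the member with the highest mean RPKM in each role, the 5 with the lowest unadjusted p for sex in each tissue, and the 3 with the highest ratio of highest to lowest library in each tissue (mean of at least 50). They were also printed for the 3 largest rises and the 3 largest falls between tissues and for the gene of highest RPKM in each pathway list.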

Additional observations from a re-analysis of the deposited data

How the results depend on the processing

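The counts of called members, the sex medians in each tissue and the ranks of female DRG library 1 were compared under the alternatives. Of these, 92 values were kept and 3 turned in sign. A count was kept if it stayed similar in size, and a median if it moved by less than the SD between libraries of a sex. That SD includes female DRG library 1. The gamma-type median in DRG thus counted as kept at 0.19 without library 1 of either sex, against 1.21 with all libraries. Of the values of named genes, 240 kept their direction and their side of the threshold, 9 turned and 3 became called. The interaction medians are not in these counts, and turned to 0.61 (gamma type) and 0.63 (type I) without female DRG library 1, to 0.20 and 0.36 without library 1 of either sex, and to 0.03 for type I with the replicate block. The median log2 fold change between the sexes in DRG turned to -0.18 for gamma-type members without female DRG library 1, and ran from -0.18 to 1.65 with 1 library left out. For type I members it was -0.17 without that library (range -0.17 to 0.82) and -0.02 without library 1 of either sex, which was added after seeing the data. On the same scale, Iigp1 ran from -0.30 to 2.81, Gbp6 from -0.81 to 1.74 and Gbp2 from -0.33 to 2.35, and the added alternative gave -0.059 for Iigp1 and -0.191 for Gbp6. Rsad2 in hind paw was -0.063 by DESeq2 and ran from -0.41 to 1.08. Irf8 (0.47) and Ciita (0.52) were called higher in hind paw without female DRG library 1, and Ciita (0.50) also without library 1 of either sex. The cause was not tested beyond leaving the libraries out.

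Over all genes the number called for sex depended on the method, with 7 in DRG by edgeR and 15 by DESeq2, and 22 and 208 in hind paw, where no count filter gave 40, all 12 libraries in 1 fit 88, and leaving out 1 library 1 to 8. The interaction gave 2 by edgeR and 36 by DESeq2. How large a change of a member had to be for a call with 3 libraries per group was not tested.

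With the library number as a replicate block, 0 members were called for sex in DRG and 0 in hind paw. There were 0 called for the interaction and 29 of 40 between tissues. Over all genes 5 were called in DRG, 8 in hind paw, 1 for the interaction and 13275 of 15666 between tissues. Deviations from the group means of libraries with the same number correlated at -0.20, -0.06 and -0.18 between the sexes in DRG, at -0.03, -0.32 and 0.23 in hind paw, at 0.03, -0.04 and 0.14 between the tissues of females, and at -0.28, -0.00 and -0.12 of males. Not every library correlated best with its own number, and the labels do not say what a shared number means, so no pairing was assumed.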

Other observations

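3 further marker lists were summed as normalized counts and were not tested against the members. Neutrophil-line markers (9 of 10 in the files, S100a9 most abundant) summed to 2070.1, 2117 and 1845 in females and 823, 1602 and 1876 in males in DRG and 205, 295 and 405 in females and 73.6, 498 and 252 in males in hind paw, where 5, 1, 3, 3, 4 and 2 of the 9 had 0 reads in the same order. Of the 9 erythroid-line markers the 4 globin genes (Hba-a1, Hba-a2, Hbb-b1 and Hbb-b2) had 0 reads in all 12 libraries, and the other 5, with Slc4a1 most abundant in DRG, summed to 795, 797 and 572 in females and 162, 457 and 624 in males in DRG and 70.8, 28 and 34.6 in females and 72, 60 and 36.9 in males in hind paw. Reads aligned more than 1 time were not counted for any gene, so the 0 reads do not show that globin mRNA was absent. Endothelial markers (5 of 5, Pecam1) summed to 1697, 1397 and 1416 in females and 1314, 1544 and 1311 in males in DRG and 2106, 2051 and 1963 in females and 2636, 2532 and 2359 in males in hind paw.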
